A study of Mus musculus with 6 samples.

Results

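The genes described here encode the proteins of synaptic vesicles and of the machinery that releases and recovers them. They comprise 43 genes chosen by symbol from textbook families (synapsins, synaptotagmins, SNARE proteins, vesicle transporters, Rab3, Rims and Unc13 proteins, complexins, synucleins and related genes), and all 43 were matched among the 41388 Ensembl gene identifiers of the count files. Female and male libraries were made from sensory neurons of mouse embryos (strain C57BL/6, stage 18.5 dpc, that is days post coitum), 3 libraries of each sex. Cells were dissociated from dorsal root ganglia of spinal levels T11 to S1 and sorted for EGFP, which reports expression of the receptor tyrosine kinase gene Ret. All 6 libraries carried the reporter: the genotype label is Tg(Ret-EGFP)SJ, whereas the series text describes heterozygotes with EGFP placed in the Ret locus itself, so that the number of intact Ret alleles is not settled. Female A held 60 ganglia of 3 embryos from 2 mothers, and female B and female C held 20 ganglia of 1 embryo each. Male A held 60 ganglia of 3 embryos, male C held 40 ganglia of 2 embryos from 2 mothers, and male D held 40 ganglia of 2 embryos. The reporter marks several kinds of Ret-positive neuron together, and no EGFP-negative cells were analysed, so the levels below are averages over a mixed pool and not values for 1 neuron type. Female B and female C have records of a different form from the other 4 libraries, and are called record set 2, with the other 4 as record set 1.

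At a synapse, vesicles are filled by transporters in their membrane, tethered at the active zone by scaffold proteins, primed by Unc13 proteins, and fused when SNARE proteins on the vesicle and the plasma membrane zip together. Synaptotagmins act as calcium sensors of this step or modulate it, complexins hold the SNARE complex in check, and clathrin, its adaptors and dynamin recover the membrane. Primary sensory neurons of the dorsal root ganglion use glutamate as their main fast transmitter and release it in the spinal cord, while the transcripts measured here are those of their cell bodies.

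Total counts ranged from 17861500 to 29330101 per library, and 19974 to 22052 genes had at least 1 count. A count of 0 allows up to 3 counts, which is 0.102 to 0.168 CPM (counts scaled to a library total of 1000000), and such limits cover counting error only, since reads amplified without molecular identifiers are not independent molecules. All 12 pan-sensory neuron markers were detected, with mean levels of 18.6 to 2781 CPM per kilobase of exon. Their summed level was 15783 to 21978 CPM in female libraries and 15490 to 16666 CPM in male libraries. Male A stood apart in markers of other cells: the summed level of 14 satellite glia and Schwann cell markers, all of them detected, was 4465 CPM in male A, against 1794 to 2221 CPM in the other 5 libraries. The 7 fibroblast and meningeal markers summed to 2873 CPM in male A, against 574 to 675 CPM elsewhere, and the comparison of the sexes is given below with and without male A. Libraries of 1 sex came from different embryos.

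Levels between genes are given per length, as CPM scaled with TMM factors and divided by the summed exon length in kilobases (CPM per kb), with mean ± SD and n = 6 unless stated. The 43 genes together took 1.29% of all counts. Their summed level, here in CPM without division by length, was 12788, 14711 and 14188 CPM in female A, B and C and 10941, 11615 and 13701 CPM in male A, C and D. Female B was the highest and male A the lowest, and the sexes overlapped. A few genes weigh most in this sum: of its mean of 12991 CPM, Sncg, Syt11, Synpr and Syt4 held 2655, 1607, 1543 and 1467 CPM. Single genes spanned 4 orders of magnitude in the plot of levels by library, from Sncg at 3116 ± 541 CPM per kb, which ranked 6 among 21397 protein-coding genes, to Slc17a8 at 0.16 ± 0.06 CPM per kb, which ranked 13513.

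**Figure D1:**
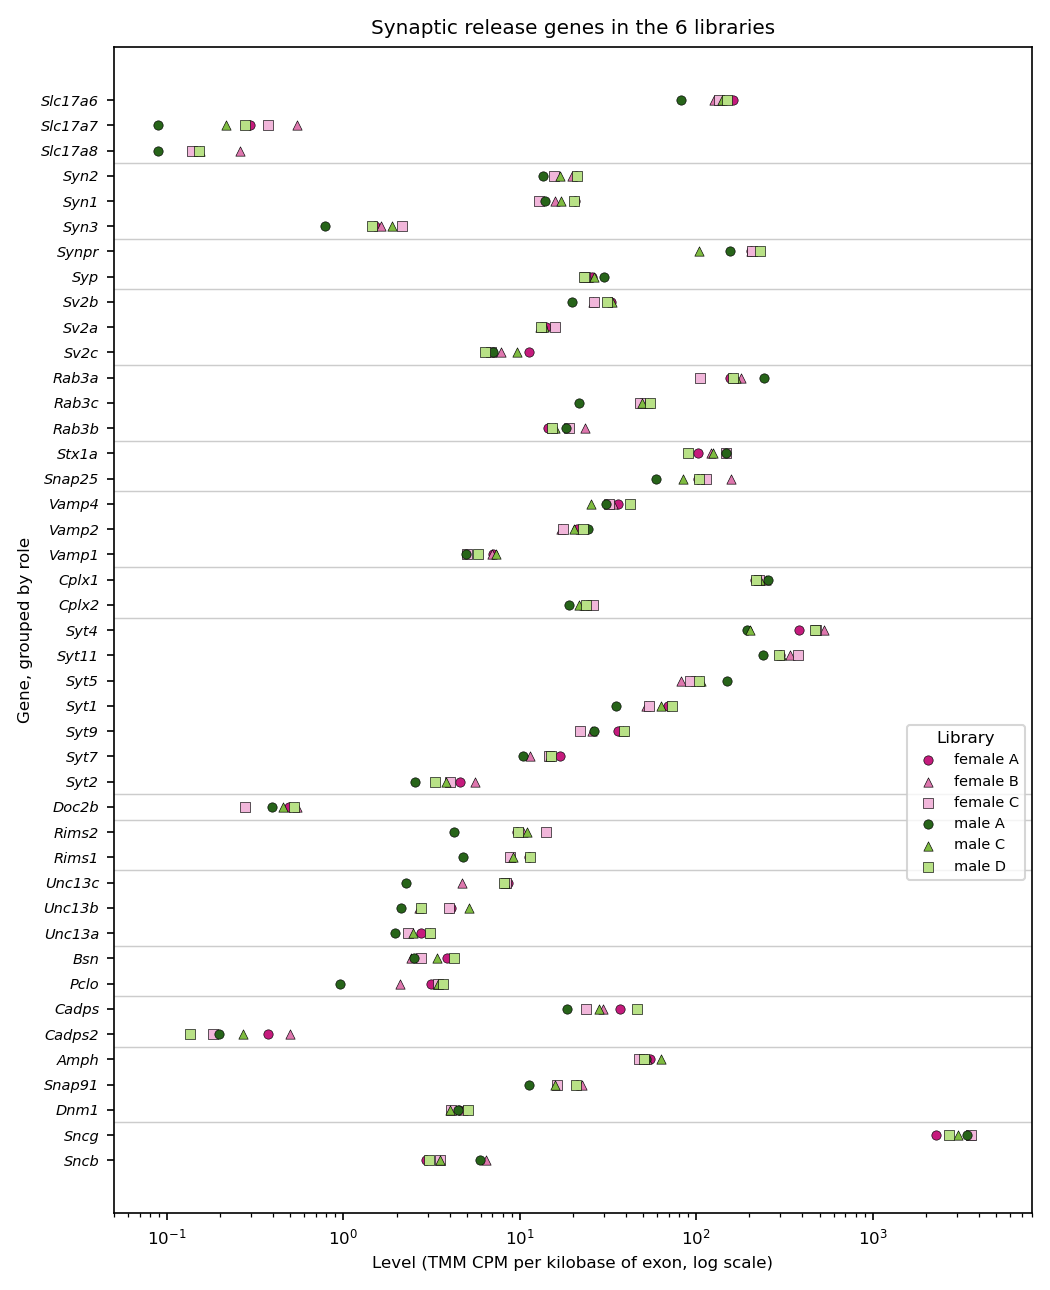
Per-length level (TMM CPM per kilobase of summed exon length, log axis) of each of the 43 genes in the 6 libraries, grouped by role, with 1 point per library. Sncg lies at 2289 or above in every library and Slc17a7, Slc17a8, Cadps2 and Doc2b lie below 1, while the dark green circle of male A is the lowest point for 23 of the 43 genes.

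Of the 43 genes, 35 matched a RefSeq promoter table (GRCm38.p6, 250 bases before to 50 bases after a start site), with 46 promoters. The 3 gene pairs printed here and below were selected because their levels are among the farthest apart (glutamate transporters and synucleins) or the closest (synapsins) within a family. Capitals mark the motifs searched, on either strand: the GC box GGGCGG, the cAMP response element TGACGTCA, its first 5 letters TGACG, the left and right parts TCAGCACC and GGACAGC of the RE1 element, and the TATA box TATAAA. The 5-letter motif lies inside the cAMP response element, so a match to the longer motif is also a match to the shorter one. The promoters of Slc17a6 and Slc17a7, which encode vesicular glutamate transporters, each hold the GC box, and the window shown for Slc17a6 is the one nearest the start of the gene in the files.
Slc17a6 (chr7:51621580-51621879, plus strand): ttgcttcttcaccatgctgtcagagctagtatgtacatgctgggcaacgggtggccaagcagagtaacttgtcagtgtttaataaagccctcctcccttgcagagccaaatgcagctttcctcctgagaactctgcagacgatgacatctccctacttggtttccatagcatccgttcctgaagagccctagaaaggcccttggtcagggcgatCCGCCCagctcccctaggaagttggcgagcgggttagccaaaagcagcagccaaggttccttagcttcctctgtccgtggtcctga
Slc17a7 (chr7:45163671-45163970, plus strand): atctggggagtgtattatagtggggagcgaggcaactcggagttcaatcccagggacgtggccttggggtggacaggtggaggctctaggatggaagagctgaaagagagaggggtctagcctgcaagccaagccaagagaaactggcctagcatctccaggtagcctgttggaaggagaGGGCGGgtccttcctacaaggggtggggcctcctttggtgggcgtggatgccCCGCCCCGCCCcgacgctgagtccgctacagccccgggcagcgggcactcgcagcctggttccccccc

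Sncg and Sncb encode gamma- and beta-synuclein, small proteins of presynaptic terminals and axons. The promoters of both hold the GC box and TGACG.
Sncg (chr14:34374620-34374919, minus strand): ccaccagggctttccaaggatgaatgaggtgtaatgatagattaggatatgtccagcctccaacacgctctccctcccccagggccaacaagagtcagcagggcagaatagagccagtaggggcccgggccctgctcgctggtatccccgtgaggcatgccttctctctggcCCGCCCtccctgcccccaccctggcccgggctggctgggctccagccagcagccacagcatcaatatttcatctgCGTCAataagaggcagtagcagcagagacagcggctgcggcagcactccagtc
Sncb (chr13:54766546-54766845, minus strand): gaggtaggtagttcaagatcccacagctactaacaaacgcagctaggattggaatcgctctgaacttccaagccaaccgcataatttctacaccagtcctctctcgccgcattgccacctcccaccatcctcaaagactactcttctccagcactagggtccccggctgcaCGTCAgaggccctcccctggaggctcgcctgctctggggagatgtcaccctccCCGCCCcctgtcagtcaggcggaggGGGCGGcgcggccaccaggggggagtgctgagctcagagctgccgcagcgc

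Synapsins coat the vesicle surface and hold vesicles in clusters. The Syn1 promoter is the only 1 of the 46 with the full cAMP response element, and it also holds the left part of RE1, whereas the Syn2 promoter holds the GC box alone of the motifs searched.
Syn1 (chrX:20920869-20921168, minus strand): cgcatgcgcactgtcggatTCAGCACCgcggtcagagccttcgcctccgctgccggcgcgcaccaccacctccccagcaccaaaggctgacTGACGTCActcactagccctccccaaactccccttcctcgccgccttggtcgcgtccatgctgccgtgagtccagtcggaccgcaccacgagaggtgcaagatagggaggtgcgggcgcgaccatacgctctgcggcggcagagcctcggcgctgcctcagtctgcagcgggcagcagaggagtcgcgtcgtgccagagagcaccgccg
Syn2 (chr6:115134652-115134951, plus strand): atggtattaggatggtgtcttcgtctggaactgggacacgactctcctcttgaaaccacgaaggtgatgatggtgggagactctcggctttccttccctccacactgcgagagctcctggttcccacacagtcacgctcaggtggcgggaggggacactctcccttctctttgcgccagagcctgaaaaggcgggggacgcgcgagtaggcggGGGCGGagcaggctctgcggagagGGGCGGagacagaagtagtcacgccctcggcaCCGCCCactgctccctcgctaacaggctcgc

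Across the 46 promoters of these genes the GC box occurred in 65.2%, against 35.7% of the 32851 promoters in the table. The median number of CpG dinucleotides was 17 in promoters of these genes, against 7 in all promoters, and the median GC content was 60.5% against 52.7%. TGACG was found in 23.9% of promoters of these genes, against 20.8% of all promoters. The full cAMP response element was found in 2.17% against 1.79%, and the left part of RE1 in 4.35% (Syn1 and Unc13a) against 1.65%. The right part of RE1 occurred in 2.17% (Unc13a) against 6.56%, and the TATA box in 6.52% (Rab3b and Sv2b) against 13.6%. The GC box is itself made of G and C. A match is a description of letters and not a bound site.

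Slc17a6, the transporter VGLUT2, carried nearly all of the transporter transcript. Slc17a6 (ENSMUSG00000030500, GRCm38 chromosome 7, 51621830 to 51671125, plus strand) had 162, 126 and 134 CPM per kb in female A, B and C and 81.6, 141 and 149 CPM per kb in male A, C and D. Male A was the lowest and the other 5 libraries lay close together. Slc17a7, which encodes VGLUT1, the main transporter of cortical glutamatergic neurons, had 0.30, 0.55 and 0.37 CPM per kb in female A, B and C and 0.09, 0.22 and 0.28 CPM per kb in male A, C and D. These levels rest on 5 to 29 counts per library, at least as many as the 3 counts that a 0 allows. Slc17a8, which encodes VGLUT3, had 8 to 23 counts per library and 0.09 to 0.26 CPM per kb. Slc17a6 took 99.66 ± 0.15% of the summed level of the 3 genes, and it exceeded Slc17a7 by 477-fold and Slc17a8 by 841-fold (geometric means of the within-library ratios). Each ratio was tested with an exact two-sided sign-flip permutation test over the 6 libraries, in which the smallest possible p is 0.03125. By this exact permutation test both pairs gave p = 0.03125, adjusted p = 0.0352 over the 45 pairs tested, with Slc17a6 higher in 6 of 6 libraries. Among the transporters of other transmitters, none of them among the 43 genes, the GABA and glycine transporter gene Slc32a1 had no count in any library and the acetylcholine transporter gene Slc18a3 had 17 counts in all 6. The monoamine transporter gene Slc18a2 stood at 15.5 ± 7.60 CPM per kb. These 3 were chosen after their values were seen, and Slc17a5, a lysosomal relative, was second to Slc17a6 at 9.45 ± 0.62 CPM per kb.

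Of the vesicle membrane proteins, synaptoporin exceeded synaptophysin. Synpr (ENSMUSG00000056296, chromosome 14, 13284780 to 13615459, plus strand) had 205, 206 and 206 CPM per kb in female A, B and C and 156, 104 and 229 CPM per kb in male A, C and D. The female libraries lay together and the male libraries spread on both sides of them. Syp, the vesicle protein used most often as a synapse marker, had 25.6, 24.3 and 23.5 CPM per kb in female A, B and C and 30.2, 26.4 and 23.2 CPM per kb in male A, C and D. Synpr was 7.02-fold above Syp, in 6 of 6 libraries (exact sign-flip permutation, adjusted p = 0.0352), and 11.3-fold without length. The Sv2 genes encode vesicle glycoproteins that bind synaptotagmin and serve as receptors for botulinum toxins. Sv2b averaged 28.2 ± 5.14 CPM per kb and took 55.9 ± 4.15% of the family, Sv2a averaged 13.9 ± 1.03 CPM per kb, and Sv2c averaged 8.14 ± 1.90 CPM per kb. Their order was the same in 6 of 6 libraries, and Sv2b was 2.01-fold above Sv2a and 3.48-fold above Sv2c, which became 7.35-fold per longest transcript. Sv2a was among the steadiest of the 43 genes, with a coefficient of variation (CV) of 7.43%.

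Syn1 and Syn2 did not separate per summed exon length, and Syn3 was below both. Syn2 averaged 17.9 ± 3.09 CPM per kb and Syn1, the X-linked member, 16.8 ± 3.21 CPM per kb, with Syn2 higher in 4 of 6 libraries. The mean log2 ratio of Syn2 to Syn1 was 0.10 ± 0.16 (SD, n = 6), with p = 0.281 and adjusted p = 0.301 in the exact permutation test. Under the 3 other treatments of length Syn2 was above Syn1, by 1.55-fold per longest transcript, 1.83-fold without length and 2.21-fold per coding length (adjusted p = 0.037, 0.0391 and 0.0361 in the exact permutation test). Syn3 averaged 1.57 ± 0.46 CPM per kb, 11.8-fold below Syn2 and 11.0-fold below Syn1 in 6 of 6 libraries, and 5.35-fold below Syn2 and 2.42-fold below Syn1 per coding length. Of the exon length of Syn3, 14.1% (1733 bp) lies opposite Timp3, and Syn3 had 2588 counts over the 6 libraries against 21331 for Timp3. Whether reads were assigned by strand is not known, so those of the overlap cannot be told apart between Syn3 and Timp3.

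Rab3 proteins are small GTPases that attach vesicles to the active zone through Rims proteins. Rab3a (ENSMUSG00000031840, chromosome 8, 70754679 to 70758677, plus strand) had 155, 179 and 104 CPM per kb in female A, B and C and 241, 168 and 162 CPM per kb in male A, C and D. Male A was the highest library and female C the lowest. Rab3c had 48.9, 53.5 and 47.9 CPM per kb in female A, B and C and 21.7, 49.2 and 54.8 CPM per kb in male A, C and D, with male A lowest. Rab3b averaged 17.7 ± 3.32 CPM per kb. Rab3a was 3.71-fold above Rab3c and 9.34-fold above Rab3b in 6 of 6 libraries (exact permutation, adjusted p = 0.0352 for each). The ratio to Rab3c depends on the length used: Rab3a has 2226 bp of exon and Rab3c 8500 bp, and per gene, without division by length, the mean log2 ratio was -0.043 and Rab3c led in 5 of 6 libraries, as it did per coding length. Rab3a stayed above Rab3b under each treatment, by 5.90- to 12.6-fold. Rab3d, which is not among the 43 genes and was named after its values were seen, stood between them at 61.8 ± 3.80 CPM per kb.

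The plasma membrane SNARE genes had higher per-length levels than the vesicle SNARE genes in each of the 6 libraries. Stx1a, which encodes syntaxin 1A, had 102, 121 and 147 CPM per kb in female A, B and C and 148, 125 and 89.6 CPM per kb in male A, C and D. Snap25 had 103, 157 and 114 CPM per kb in female A, B and C and 59.2, 83.8 and 104 CPM per kb in male A, C and D. For both genes the sexes overlapped, and Snap25 was lowest in male A. Among the vesicle SNARE genes Vamp4, which encodes a SNARE of the trans-Golgi network, endosomes and some vesicles, led in every library with 35.9, 33.7 and 32.1 CPM per kb in female A, B and C and 30.7, 25.5 and 41.9 CPM per kb in male A, C and D. Vamp2, the synaptobrevin of fast release at central synapses, had 21.2, 17.2 and 17.7 CPM per kb in female A, B and C and 24.3, 20.3 and 22.8 CPM per kb in male A, C and D. Vamp4 was 1.61-fold above Vamp2 (exact permutation, adjusted p = 0.0352, 6 of 6 libraries), and Vamp2 was 3.35-fold above Vamp1 (1.46-fold without length), which averaged 6.18 ± 1.07 CPM per kb. Vamp4 led the family under each of the 4 length treatments tried. The widely expressed Vamp3, not among the 43 genes and named after its values were seen, stood at 18.3 ± 2.66 CPM per kb.

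Most complexin transcript was Cplx1, and Cplx1 was the steadiest of the 43 genes. Cplx1 (ENSMUSG00000033615, chromosome 5, 108518554 to 108550024, minus strand) had 214, 250 and 227 CPM per kb in female A, B and C and 254, 231 and 219 CPM per kb in male A, C and D, a CV of 6.94%. Cplx2 averaged 22.9 ± 2.31 CPM per kb. The share of Cplx1 was 90.97 ± 1.24% of the 2 genes, with a 10.2-fold ratio in 6 of 6 libraries (exact permutation, adjusted p = 0.0352). Per coding length and without length the share was 81.8% and the ratio 4.51-fold.

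**Figure D2:**
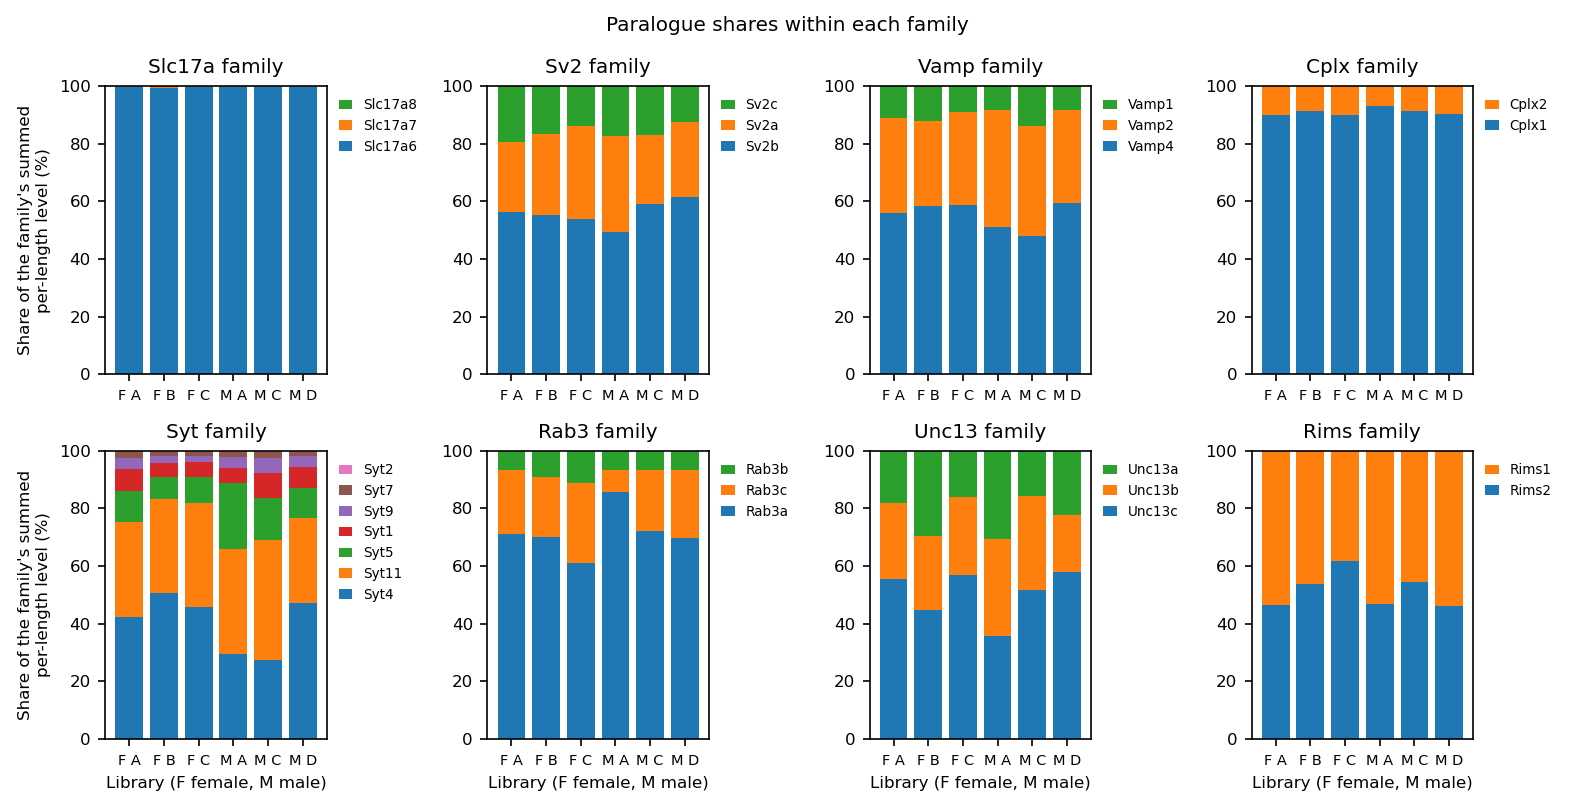
Share of each paralogue in its family's summed per-length level (percent, stacked bars) in the 3 female (F) and 3 male (M) libraries, for 8 families. Slc17a6 and Cplx1 fill most of their bars in all 6 libraries, Rims1 and Rims2 exchange first place, and in male A the share of Rab3c is 7.73% and that of Syt5 22.8%.

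The 7 synaptotagmin genes were led by the members that are not fast calcium sensors. Syt4 and Syt11 encode synaptotagmins whose first C2 domain lacks calcium binding, Syt1 and Syt2 encode fast sensors, Syt9 can also serve as a fast sensor, and Syt7 is a slow, high-affinity sensor. Syt4 (ENSMUSG00000024261, chromosome 18, 31437808 to 31447415, minus strand) had 382, 532 and 477 CPM per kb in female A, B and C and 193, 202 and 471 CPM per kb in male A, C and D. Male A and male C were far below the other 4 libraries, and the sexes overlapped through male D. Syt11 (ENSMUSG00000068923, chromosome 3, 88744700 to 88775164, minus strand) had 298, 341 and 376 CPM per kb in female A, B and C and 239, 302 and 295 CPM per kb in male A, C and D. Syt4 led in 4 libraries and Syt11 in male A and male C, and the log2 ratio of Syt4 to Syt11, 0.19 ± 0.52 (SD, n = 6), did not pass the test (exact permutation p = 0.344, adjusted p = 0.352). Per coding length Syt11 was the leader on average. Both genes exceeded each of the other 5 synaptotagmins in 6 of 6 libraries. Syt5 followed with 94.3, 82.0 and 92.1 CPM per kb in female A, B and C and 149, 107 and 104 CPM per kb in male A, C and D. Syt1 had 69.5, 51.9 and 53.7 CPM per kb in female A, B and C and 35.0, 63.1 and 72.9 CPM per kb in male A, C and D. Male A was thus the highest library for Syt5 and the lowest for Syt1. Syt5 was 1.83-fold above Syt1 in 6 of 6 libraries (adjusted p = 0.0352, exact permutation), but the direction turned with the length: the mean log2 ratio was 0.87 per summed exon length, -1.38 without division by length (adjusted p = 0.0391) and -1.26 per coding length (adjusted p = 0.0361). Per longest transcript the ratio was 1.06-fold and did not pass. Syt9 averaged 31.2 ± 7.46 CPM per kb, Syt7 averaged 13.9 ± 2.41 CPM per kb and Syt2 averaged 3.97 ± 1.05 CPM per kb. Syt1 was 14.5-fold above Syt2 (22.7-fold per longest transcript), and Syt7 was 3.55-fold above Syt2 (1.99-fold per coding length). Gm26658 lies opposite 14.7% of the exon length of Syt4, and Syt4 had 184999 counts over the 6 libraries against 127 for Gm26658.

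**Figure D3:**
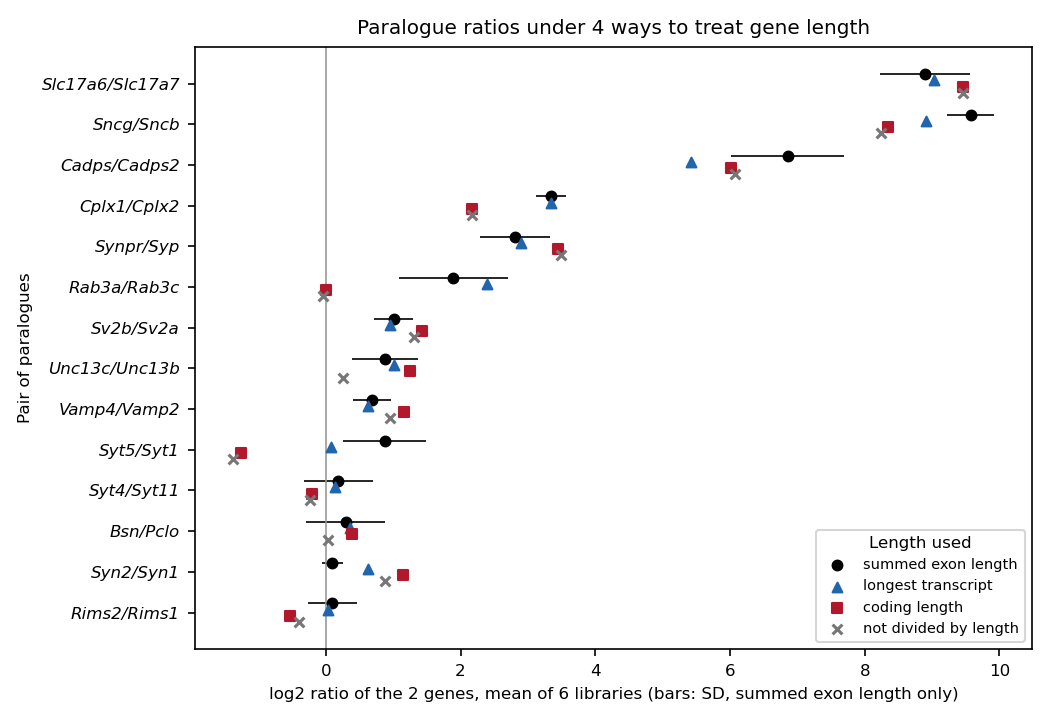
Mean log2 ratio over 6 libraries for 14 pairs of paralogues (rows), computed per summed exon length (black circles, bars SD), per length of the longest transcript, per coding length, and without division by length. The 5 pairs at the top keep a ratio above 0 under every treatment. So do Sv2b/Sv2a, Unc13c/Unc13b, Vamp4/Vamp2, Bsn/Pclo and Syn2/Syn1, at smaller ratios. Syt5/Syt1 lies at 0.87 per summed exon length and at -1.26 and -1.38 under coding length and no length.

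The Rims, Unc13, Bsn and Pclo genes had mean levels under 10 CPM per kb. Rims2 averaged 9.88 ± 3.20 CPM per kb and Rims1 9.06 ± 2.39 CPM per kb, each leading in 3 libraries (log2 ratio 0.09 ± 0.36, exact permutation p = 0.5625, adjusted p = 0.5625), and per coding length Rims1 led in 5 libraries. Rims3, a short relative without the Rab3-binding part and not among the 43 genes, was above both in 6 of 6 libraries at 23.6 ± 2.68 CPM per kb. Of the Unc13 genes, whose Munc13 proteins prime vesicles, Unc13c was the highest, and cerebellar granule cells are where this member is best known. Unc13c had 8.53, 4.72 and 8.30 CPM per kb in female A, B and C and 2.27, 8.23 and 8.10 CPM per kb in male A, C and D. It was low in male A and female B and close together in the other 4 libraries. Unc13c was 1.84-fold above Unc13b and 2.35-fold above Unc13a in 6 of 6 libraries (adjusted p = 0.0352, exact permutation). This order depends on the length: per coding length Unc13c led in 4 libraries and was 1.28-fold above Unc13a (exact permutation, adjusted p = 0.268), and it did not pass against Unc13a under any of the 3 other treatments. Without length Unc13c was 1.20-fold above Unc13b (exact permutation, adjusted p = 0.309). Unc13b averaged 3.46 ± 1.14 CPM per kb and Unc13a, the principal priming factor of many central synapses, 2.62 ± 0.46 CPM per kb, which did not separate (log2 ratio 0.36 ± 0.52, exact permutation p = 0.219, adjusted p = 0.240). Per coding length the log2 ratio of Unc13b to Unc13a was -0.89 and passed (exact permutation, adjusted p = 0.0361). The giant scaffold genes Bsn and Pclo stood at 3.19 ± 0.75 and 2.79 ± 1.05 CPM per kb. Pclo had 3.14, 2.08 and 3.43 CPM per kb in female A, B and C and 0.96, 3.45 and 3.66 CPM per kb in male A, C and D, and Bsn, at 2.51 CPM per kb in male A, was far above it there. The Bsn to Pclo log2 ratio of 0.29 ± 0.58 did not pass the test (exact permutation p = 0.3125, adjusted p = 0.327).

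Of the genes for dense-core vesicle priming, Cadps carried nearly all of the transcript. Cadps, which encodes the priming factor CAPS1, had 37.0, 29.5 and 23.9 CPM per kb in female A, B and C and 18.5, 28.2 and 46.1 CPM per kb in male A, C and D. Cadps2 averaged 0.28 ± 0.14 CPM per kb, from 27 to 86 counts per library, and Cadps was 116-fold above it in 6 of 6 libraries (exact permutation, adjusted p = 0.0352), against 42.6-fold per longest transcript. Doc2b, a high-affinity calcium sensor, was at 0.45 ± 0.10 CPM per kb, from 24 to 63 counts per library. Among the genes of membrane recovery, Amph, which encodes the curvature-sensing protein amphiphysin, stood at 53.3 ± 5.29 CPM per kb. Snap91, the clathrin adaptor AP180 and no SNARE despite its symbol, stood at 17.95 ± 4.25 CPM per kb. Dnm1, a dynamin that cuts vesicles from the membrane, was at 4.50 ± 0.42 CPM per kb. Its paralogues Dnm3 and Dnm2, not among the 43 genes and named after their values were seen, were at 12.0 ± 4.08 and 3.62 ± 1.55 CPM per kb. Dnm3 was above Dnm1 in every library. The CVs of Amph (9.92%) and Dnm1 (9.31%) were among the 5 lowest of the 43 genes.

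Sncg was the highest of the 43 genes in every library. Sncg (ENSMUSG00000023064, chromosome 14, 34370274 to 34374789, minus strand) had 2289, 3608 and 3616 CPM per kb in female A, B and C and 3440, 3048 and 2693 CPM per kb in male A, C and D. Its exon length is 852 bp, the shortest of the set. Sncb had 2.96, 6.40 and 3.55 CPM per kb in female A, B and C and 5.94, 3.53 and 3.04 CPM per kb in male A, C and D. The Sncg to Sncb ratio was 761-fold, in 6 of 6 libraries (exact permutation, adjusted p = 0.0352), and 302-fold without length.

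Over the 13 families, 40 of the 45 within-family pairs passed the threshold, each with the same direction in 6 of 6 libraries and the smallest p that 6 libraries allow. The 5 that did not were Syt4/Syt11, Syn2/Syn1, Rims2/Rims1, Unc13b/Unc13a and Bsn/Pclo, so these neighbours could not be ordered beyond their spread per summed exon length. With other lengths Syn2/Syn1 passed, as did Unc13a over Unc13b per coding length. With 5 libraries the smallest possible p is 0.0625, so no pair can pass after a library is left out. All 40 share 1 p, so the adjusted p of each depends on how many pairs reached it. Pairs of 1 family share genes and are not independent of each other.

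Spread between libraries was close to that of the transcriptome. The median SD of the log2 level over 6 libraries was 0.35 for the 43 genes, against 0.37 for 14853 genes with a count in every library. Those genes were of all levels and were not matched to the 43 by level. CVs ran from 6.94% for Cplx1 and 7.43% for Sv2a to 49.4% for Cadps2 and 51.4% for Slc17a7, which had 5 to 29 counts per library. Among genes above 1 CPM per kb, the CV was highest for Syt4 (38.96%), Unc13c (38.8%) and Pclo (37.8%).

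Male A was the library most often at the low end. It was the lowest library for 23 of the 43 genes (53.5%), against 28.4% of the 14958 genes tested, and 33 of the 43 lay below their own mean there. The median log2 deviation of the 43 genes from their means was -0.34 in male A, and between -0.04 and 0.13 in the other 5 libraries, while the median over all tested genes in male A was -0.00. The deviation went with exon length. The 22 genes of up to 5205 bp had a median deviation of -0.12 in male A with 14 of 22 below their mean, and the 21 longer genes had -0.61 with 19 of 21 below. Over all tested genes the corresponding medians in male A were 0.09 and -0.25. Across the 43 genes the Spearman correlation of exon length with deviation was 0.56 in female A and -0.61 in male A, against 0.35 in female A and -0.23 in male A across all tested genes. These are descriptions across genes of single libraries, and genes that share a library are not replicates. The lowest deviations in male A were those of Unc13c (-1.41) and Pclo (-1.40), and the highest were those of Rab3a (0.56), Sncb (0.55) and Syt5 (0.54). Beside these values stand the glia and fibroblast marker sums given above, which were highest in male A, and the endothelial and pericyte sum of 77.2 CPM in male A against 27.1 to 40.8 CPM elsewhere. The pan-sensory neuron sum was also lowest in male A. The part of these markers, of RNA length or of depth in the result was not tested. In bulk RNA, fewer neurons and less RNA per neuron cannot be told apart.

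**Figure D4:**
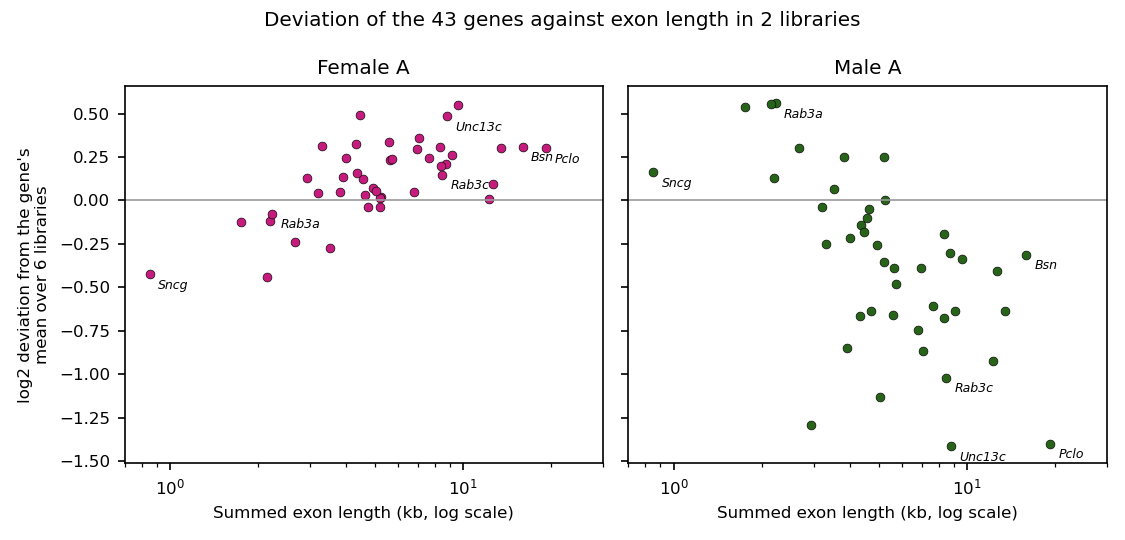
Log2 deviation of each of the 43 genes from its mean over 6 libraries (vertical axis) against summed exon length (kilobases, log axis) in female A and in male A, with 1 point per gene. In female A most long genes lie above 0, whereas in male A long genes such as Pclo (-1.40) and Unc13c (-1.41) lie far below 0 and Rab3a (0.56) above it.

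Between the sexes, none of the 43 genes passed the threshold of an adjusted p under 0.05 in edgeR's quasi-likelihood test over 14958 genes (3 female against 3 male libraries). The background was 4 genes called, 0.0267% of those tested, and 0 genes were called without female A (1110 at an unadjusted p under 0.05). Of the 43, 31 had a log2 change above 0 and 12 below, with a median of 0.10 against -0.00 over all tested genes. This tilt went with male A: without male A, 20 were above 0 and 23 below, with a median of -0.03. The smallest adjusted p was 0.961, and DESeq2 also called 0 of the 43. In edgeR 2 of the 43 genes had an unadjusted p under 0.05, beside 661 of the 14958 genes tested. Those 2 were Snap25, at 125 ± 28.8 CPM per kb in females and 82.3 ± 22.4 CPM per kb in males (log2 change 0.60 ± 0.26 SE, unadjusted p = 0.043), and Syt2. Syt2 had 4.57, 5.58 and 4.02 CPM per kb in female A, B and C and 2.53, 3.83 and 3.30 CPM per kb in male A, C and D (log2 change 0.55 ± 0.24 SE, unadjusted p = 0.043), so that the sexes did not overlap. Without male A neither gene had an unadjusted p under 0.05, with log2 changes of 0.41 for Snap25 and 0.40 for Syt2. Of the female libraries 2 are record set 2 and all male libraries are record set 1. With record set as a term the log2 changes were 0.32 for Snap25 and 0.50 for Syt2, and none of the 43 had an unadjusted p under 0.05, as was also the case in record set 1 only and without female B. Slc17a7 was also higher in all female libraries (log2 change 1.04 ± 0.54 SE), from the few counts given above. Syt5 was lower in all female libraries (log2 change -0.42 ± 0.21 SE). These 3 of 43 genes without overlap of the sexes compare with 8.06% of all tested genes. The test had limited reach at this spread, a biological coefficient of variation of 31.1%: on simulated data for this comparison, over about 14664 genes, it recovered 12.9% of genes changed 2-fold, 77.8% of those changed 4-fold and 93.5% of those changed 8-fold.

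**Figure D5:**
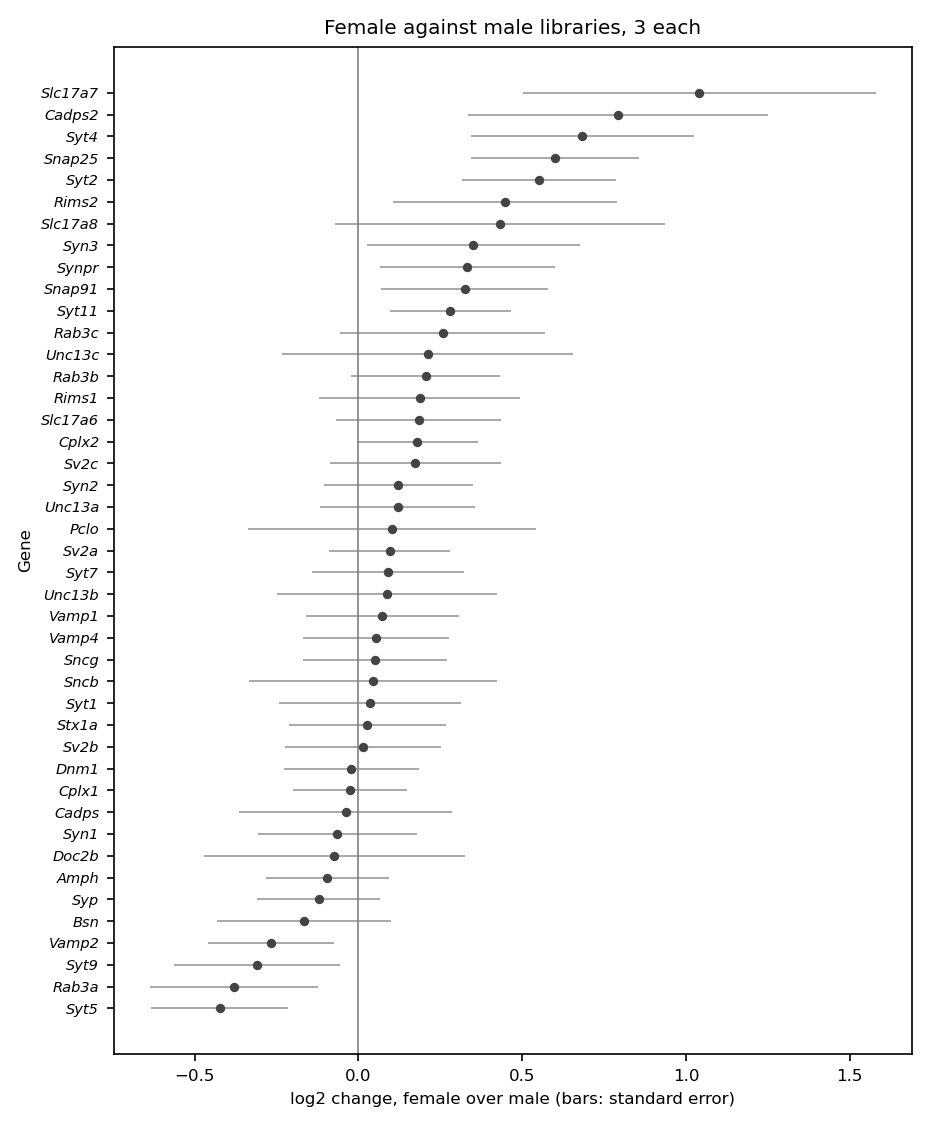
Log2 change of each of the 43 genes, female over male libraries (3 each), from edgeR's quasi-likelihood fit, sorted from highest to lowest, with bars for the standard error. The points run from 1.04 for Slc17a7 to -0.42 for Syt5, and none of the 43 passed the threshold.

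Between the record sets, with sex as a term, 0 of the 43 genes passed the same test, beside 0.0% of the 15536 genes tested. At an unadjusted p under 0.05 the test gave 508 genes, and DESeq2 called 13 genes, none of them among the 43. Of the 43, 17 had a log2 change above 0 and 26 below, with a median of -0.12. Sncg alone had an unadjusted p under 0.05, at a mean of 3612 CPM per kb in record set 2 and 2867 CPM per kb in record set 1 (log2 change 0.66 ± 0.25 SE, unadjusted p = 0.031, adjusted p = 1). The fit takes female A as the only female library of record set 1, and Sncg was lowest in female A. Female B and female C also held fewer embryos and ganglia than any library of record set 1. Record set and pool size therefore cannot be told apart. Without female B, female C or male C none of the 43 had an unadjusted p under 0.05 in this fit, and 3 had one without male A.

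Other genes of the release pathway, from lists drawn up by function and not holding any of the 43, were set beside them. Between the sexes no gene of the 5 lists passed edgeR's threshold. Of their 79 tested genes, 3 had an unadjusted p under 0.05 (Vamp5, Slc18a2 and Pacsin1, named after their values were seen). This compares with 661 of all 14958 genes tested. Of 19 tested SNARE proteins and regulators, 10 were higher and 9 lower in females by log2 change, and the highest per length were Snap47, a SNARE of the Snap25 family, at 333 ± 34.2 CPM per kb and Napa, which helps to take SNARE complexes apart, at 151 ± 25.2 CPM per kb. The 11 further synaptotagmins, Doc2 and rabphilin genes tested were led by Syt16 at 16.2 ± 1.38 CPM per kb and Rph3a, a Rab3 effector, at 12.5 ± 1.99 CPM per kb, with 6 above 0 and 5 below. Of 13 active zone genes 8 were above 0 and 5 below, and the highest were Lin7c, a scaffold gene, at 143 ± 43.4 CPM per kb and Rims3. The 16 vesicle membrane, transporter and Rab3 genes divided into 8 and 8. Their highest were Syngr3, which encodes a synaptogyrin, at 173 ± 16.9 CPM per kb and Atp6v1a, a subunit of the proton pump that energises vesicle filling, at 101 ± 17.6 CPM per kb. Of 20 endocytosis and recycling genes, 9 were above 0 and 11 below, and the clathrin heavy chain gene Cltc stood at 70.3 ± 25.8 CPM per kb. The median log2 changes of the 5 lists, in this order, were 0.00, 0.08, 0.06, 0.02 and -0.04, against -0.00 over all tested genes. Cplx4 and Slc17a2 had no count in any library.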

How the data were processed

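RNA from EGFP-sorted dorsal root ganglion cells was amplified from 10 ng with a SMARTer ultra low input kit, without molecular identifiers, and sequenced on an Illumina HiSeq, per the labels' protocols. Per the submitters' processing notes, Subread and featureCounts 1.4.5 were used with GRCm38.p2; how strand and multiply mapped reads were handled is not stated in those notes or in the labels. The authors deposited raw counts, summed exon lengths, CPM and RPKM per Ensembl gene and library. The deposited CPM and RPKM were recomputed from the counts and lengths within a tolerance of 1e-06, and only counts and lengths were used. Gene names came from a table of Ensembl identifiers, which named 40254 of 41388; Vamp7, of the lists, had no match by symbol.

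The 43 genes and all lists were chosen with earlier results of these data known. All 43 passed the filter on low counts. Named genes are the 43, the 2 highest per length of each pathway list, genes of those lists past a threshold, and paralogues above a family's leader; 1 gene that the rule names is not reported here. Slc32a1, Slc18a2, Slc18a3, Slc17a5, Slc17a2, Rab3d, Vamp3, Vamp5, Pacsin1, Dnm2, Dnm3 and Cplx4 lie outside the rule and were named after their values were seen. Female and male libraries (3 each), and record set 2 against record set 1 with sex as a term, were compared with edgeR 4.0.16 (glmQLFit and glmQLFTest, TMM factors of 0.922 to 1.08, filterByExpr, R 4.3.3), with Benjamini-Hochberg adjustment and a threshold of 0.05. Paralogue ratios used (count + 0.5) divided by length, an exact sign-flip permutation test over 6 libraries and adjustment over 45 pairs. Deviations are log2(CPM + 0.1) minus the gene's mean. The edgeR step was tested on simulated data. Alternatives were RLE factors, no filter, a filter of 1 CPM in 3 libraries, DESeq2 1.42.0, limma voom (limma 3.58.1), each library left out in turn, a block for the replicate letter, a term for record set, record set 1 only, no sex term, other lengths, a pseudocount of 2 and plain library totals. Near-identical copies (at least 95% identity over 150 bp by blastn 2.17.0, and 10% of the transcript) were searched for the 43 genes and none was found. Exon overlaps and the longest transcript and coding lengths came from GENCODE M21. Promoters came from RefSeq (GRCm38.p6).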

Additional observations from a re-analysis of the deposited data

Results flagged for a closer look

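In groups of 6 libraries the highest or lowest library was compared with its neighbour by Dixon's ratio, with its 95% critical value. Of the 43 genes 2 exceeded it (4.65%), against 12.4% of the 14958 genes tested, where chance flags about 1 in 20 groups. Both were in male A. Syt5 stood at 149 CPM per kb in male A, above 82.0 to 107 CPM per kb in the other 5 libraries. Rab3c stood at 21.7 CPM per kb in male A, below 47.9 to 54.8 CPM per kb in the other 5 libraries. The exon length is 1747 bp for Syt5 and 8500 bp for Rab3c, and the glia, fibroblast and endothelial marker sums were highest in male A. Their part in either value was not tested.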

How the results depend on the processing

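None of the 43 genes was called in either comparison under any alternative run. The number of all genes called between the sexes, 4 in the main test, was 14 without a filter, 13 with DESeq2, 1 with limma voom, 0 with record set as a term, 0 in record set 1 only, and 0 to 5 when each library was left out, with 0 without female A. With the replicate letter as a block 77 genes were called, none of the 43. Only letters A and C are shared by the sexes, the same-letter libraries did not deviate together (correlations of -0.08 and 0.05), and the block leaves 1 residual degree of freedom. Between record sets, 0 genes in the main test became 3 without a filter, 13 with DESeq2 and 3 without a sex term. The record set test could not be fitted with the replicate block or without female A, the only female library of record set 1.

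Pairs past the threshold numbered 40, and 36, 38 and 39 without length, with the longest transcript and with coding length, and 40 with a pseudocount of 2. With each library left out the range was 0 to 0, since 5 libraries cannot give a p under 0.0625. Reversed were Syt5/Syt1 (log2 ratio -1.38 without length, -1.26 per coding length) and Rab3a/Rab3c (log2 ratio -0.043 without length). Syn2/Syn1 passed under 3 length treatments (0.87 without length, 0.63 per longest transcript and 1.14 per coding length), with Syn2 higher. The length of the transcripts in these cells was not measured, so an order that turns with length is not settled. All 43 levels moved by less than 1 SD with plain library totals. Depth limits Slc17a7, Slc17a8, Doc2b and Cadps2, and the number of libraries limits the tests.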
